A study of Mus musculus with 6 samples.

Results

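A set of 9 genes of mature astrocyte physiology was followed in cultured adult mouse neural stem cells: Aqp4, Gja1, Gjb6, Aldh1l1, Glul, S100b, Sparcl1, Thbs4 and Atp1b2. They were chosen by gene symbol, with earlier results of these data known. All 9 were found among the 24421 genes of the count table. The cells were wild-type primary cultures of subventricular zone stem cells, taken from C57BL/6 mice on postnatal day 60 and kept with EGF and FGF2, each at 20 ng/ml. For 3 days they received either the solvent DMSO (3 libraries) or PluriSIn#2 at 20 µM, an inhibitor of the topoisomerase IIA enzyme (3 libraries), with fresh medium at 24 h. The drug was the only labelled difference between the groups. For treated replicates 2 and 3 a second label field writes the drug name with other numbers than their titles do. The groups here follow the titles, and each of the 9 genes kept its call and direction with treated replicate 1 as the only treated library. In that fit the spread comes from the DMSO libraries alone, and the lone treated library is assumed to vary like them.

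Astrocytes keep the fluid around neurons stable. They pass water and potassium through channels at their endfeet, spread ions and metabolites through gap junctions, run the sodium pump, take up glutamate and turn it into glutamine, and secrete proteins that act on synapses. Stem cells of the subventricular zone are themselves astrocyte-like and share much of this gene set, so the genes are not specific to mature astrocytes.

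Libraries held between 16670962 and 19241869 counts. Top2a, the gene of the drug's target and a marker of dividing cells, stood at 878 ± 21.2 CPM (counts relative to the library total after TMM scaling; mean ± SD, n = 3) in DMSO and at 6.01 ± 1.29 in PluriSIn#2. Neural stem cell transcripts were present in both groups, with Nes at 1186 and 437 CPM and Sox2 at 49 and 32.7 CPM in DMSO and PluriSIn#2. Most of the transcriptome moved with the drug. Of 14417 genes tested, 82.6% were called by edgeR's quasi-likelihood test at a Benjamini-Hochberg adjusted p under 0.05, with 41.7% higher and 40.9% lower. The labels do not say whether a group's 3 libraries are separate cultures. If they are not, the p-values reflect technical spread alone. In bulk RNA, fewer cells of a type and less RNA per cell cannot be told apart.

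Of the 9 genes, 8 were higher in PluriSIn#2 and 1, Thbs4, was lower. Read against the 82.6% of all genes called, a count of 9 called genes is close to the background. The size of the changes differed more. Of the 9, 7 were called and at least 2-fold higher, where 16.3% of all genes tested were. The median log2 fold change of the 9 was 1.58, and the median of all genes tested was 0.01. Because the 9 were chosen with earlier results of these data known, this contrast is not a test of the set. Of the 9, 7 had enough reads in each group to be tested on their own. Gjb6 entered the test only through its treated libraries and Thbs4 only through its DMSO libraries, so a difference was built into their entry. Gjb6 is among the 7 that were called and at least 2-fold higher. For none of the 9 did the 2 groups overlap in CPM. The same held for 82.7% of all genes tested, 41.8% with the treated group higher and 40.9% with it lower.

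The 9 genes together took 0.258% ± 0.00132 (SD, n = 3) of all counts in DMSO and 0.891% ± 0.00428 in PluriSIn#2. Sparcl1 alone made up 30.3% ± 0.117 of these counts in DMSO and 50.2% ± 0.182 in PluriSIn#2. The other 8 rose from 0.180% ± 0.00111 to 0.444% ± 0.00175 of all counts. The gain was thus not that of Sparcl1 alone.

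Levels between genes were compared on the deposited FPKM, which are scaled to gene length and depth. In DMSO the order of mean FPKM was Sparcl1 (247), Glul (204), Aldh1l1 (166), Atp1b2 (161), Gja1 (53.4), Aqp4 (13.8), S100b (3.05), Thbs4 (0.279) and Gjb6 (0.186). The values of Thbs4 (0.184 to 0.334 FPKM) and Gjb6 (0.0696 to 0.293 FPKM) overlapped, and those of the other neighbours did not. In PluriSIn#2 the order became Sparcl1 (1407), Glul (630.3), Atp1b2 (368), Gja1 (239), Aldh1l1 (195), Aqp4 (45.5), S100b (9.63), Gjb6 (2.71) and Thbs4 (0.00572), with no overlap between neighbours. In the deposited FPKM, Aldh1l1 thus went from above Atp1b2 and Gja1 to below both. This order depends on the gene lengths used. The FPKM imply 3145 bases for Aldh1l1, 3017 for Atp1b2 and 3166 for Gja1 in DMSO. GENCODE exons cover 4516, 4085 and 10257 bases, and with those lengths the reordering would not hold. Among 19214 genes in that table, Sparcl1 moved from rank 160 to rank 16 by mean FPKM, Gja1 from 1499 to 191 and Aqp4 from 5998 to 1832.

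**Figure D1:**
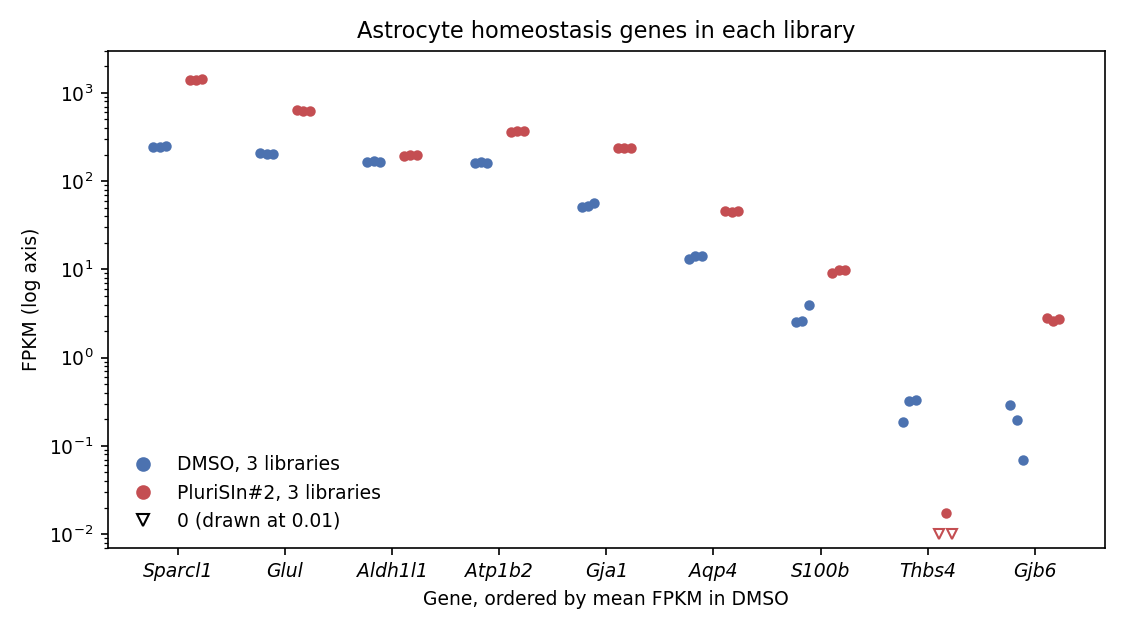
Deposited FPKM (log axis) of the 9 genes in each of the 3 DMSO (blue) and 3 PluriSIn#2 (red) libraries, 1 point per library. Open triangles stand for values of 0, drawn at 0.01. The replicates sit close together except for the low genes, Aldh1l1 barely moves, and Thbs4 is the one gene whose treated libraries (0, 0.0172 and 0 FPKM) lie below DMSO.

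**Figure D2:**
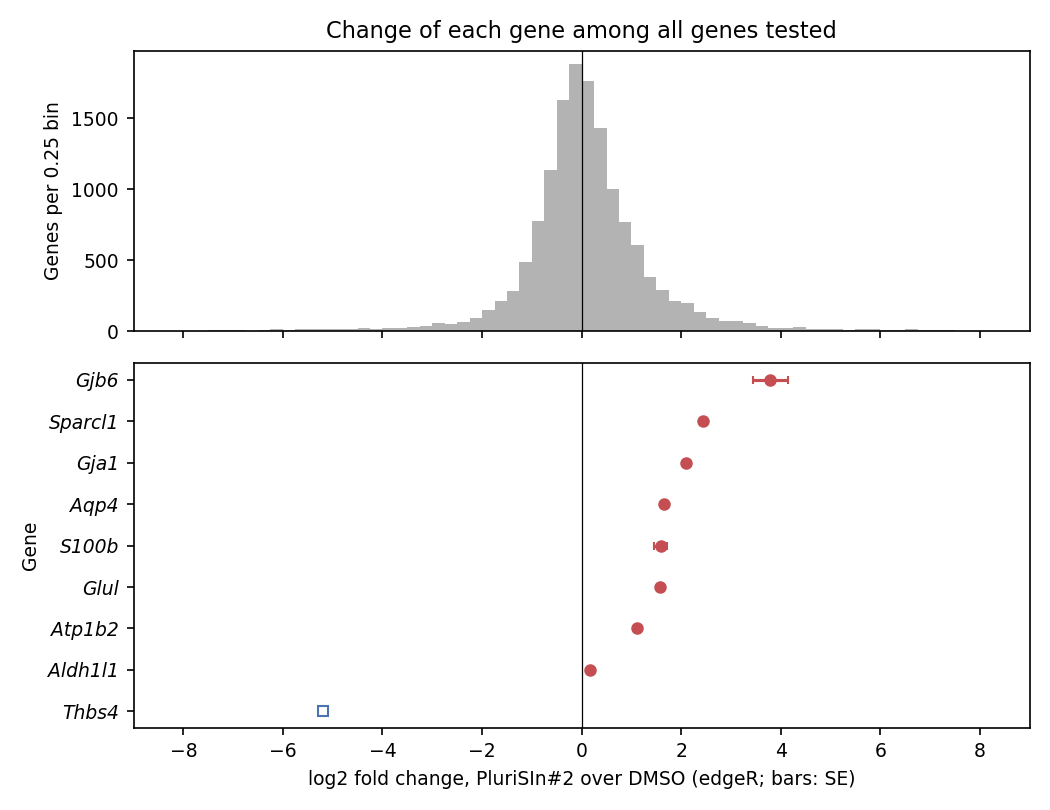
The upper panel counts all 14417 genes tested by log2 fold change of PluriSIn#2 over DMSO in bins of 0.25. The lower panel gives the edgeR log2 fold change of each of the 9 genes with its SE (bars), on the same axis. Aldh1l1 (0.17) lies inside the bulk and Gjb6 (3.79) and Sparcl1 (2.44) in the upper tail. Thbs4 is an open square without a bar because its treated value rests on 1 read.

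The gap junction genes were compared first. Gja1 encodes the main connexin of astrocytes and of neural stem cells, and lies on chromosome 10 from 56377330 to 56402513, plus strand (all positions are GENCODE positions on GRCm38, or mm10). It held 165, 171 and 183 CPM in DMSO replicates 1, 2 and 3 and 741, 743 and 734 CPM in the treated ones. All treated libraries stood about level and far above DMSO. The rise was 4.27-fold (log2 fold change 2.09, SE 0.026, edgeR adjusted p = 4.59e-79), and 5.41% of genes tested rose by more. Gjb6, the second astrocyte connexin, lies on chromosome 14 from 57123303 to 57133611, minus strand. It had 12, 8 and 3 reads in DMSO and 109, 104 and 102 reads in PluriSIn#2. The DMSO libraries were thus spread widely and the treated ones were not. Over each group's reads the treated level was 14.04 times that of DMSO (95% exact Clopper-Pearson interval 9.19 to 22.5, counting error only), and the fitted log2 fold change was 3.79 (SE 0.35, edgeR adjusted p = 3.24e-24).

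The upstream sequences of both connexin genes and of Thbs4 are printed to set the genes with large rises beside the one that fell. Each run is the 250 bases before the RefSeq transcription start on GRCm38.p6, 5′ to 3′ on the gene's strand, in a window with no annotated exon. Capitals mark a match to one of 5 motifs searched on both strands.
Gja1 (chr10:56377050-56377299, plus strand): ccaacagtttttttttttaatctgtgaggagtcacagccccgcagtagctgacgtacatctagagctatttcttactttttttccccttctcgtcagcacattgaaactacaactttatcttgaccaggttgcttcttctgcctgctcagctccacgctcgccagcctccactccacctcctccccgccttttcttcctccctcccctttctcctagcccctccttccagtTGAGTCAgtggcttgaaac
Gjb6 (chr14:57133612-57133861, minus strand): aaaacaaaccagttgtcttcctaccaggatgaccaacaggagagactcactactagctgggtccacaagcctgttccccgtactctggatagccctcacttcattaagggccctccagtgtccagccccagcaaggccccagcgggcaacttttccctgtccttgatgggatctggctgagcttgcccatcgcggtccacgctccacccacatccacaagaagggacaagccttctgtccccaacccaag
Thbs4 (chr13:92794819-92795068, minus strand): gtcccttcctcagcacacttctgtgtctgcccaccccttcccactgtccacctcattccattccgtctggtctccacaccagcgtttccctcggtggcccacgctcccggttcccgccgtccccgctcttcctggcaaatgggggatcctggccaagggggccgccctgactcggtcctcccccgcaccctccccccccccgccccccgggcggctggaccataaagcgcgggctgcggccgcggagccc
Gja1 held 1 match to the AP-1 motif TGANTCA, from base 19 to base 13 before the start. This motif was added after the Gja1 sequence had been read, and 6.75% of 32851 promoters of the same length hold it. The other motifs were the STAT motif TTCNNNGAA (7.02% of promoters), the CCAAT box CCAAT (33.8%), the TATA box TATAAA (12.4%) and the nuclear factor I palindrome (0.0365%). No window of the 3 genes printed held any of these 4. The windows differed in base composition: Thbs4 had 70.8% G and C with 19 CpG pairs, Gja1 50% with 6 and Gjb6 56.8% with 5, beside medians of 52.4% and 6 over all promoters. The table held 6 of the 9 genes. Among these 6, the windows of Glul, Aldh1l1 and S100b each had 2 CCAAT matches. They are not printed, and the Glul window overlaps exons of Teddm2 and Mir8114 while the Aldh1l1 window overlaps an exon of Aldh1l1 itself.

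Within the connexin family the balance moved. Of 20 connexin genes, 7 had enough reads to be tested, and 4 were called higher and 3 lower. Only 2 of the 7, Gja1 and Gjc1, had enough reads in each group. The others entered the test through 1 group only, Gjb2 and Gjb6 among them through the treated libraries and Gja5 and Gjc3 through DMSO, so their direction was fixed by their entry. Gjb2, often found with Gjb6, had 7 reads in DMSO and 63 in PluriSIn#2 over the 3 libraries. Gjc1 fell from 44.9 ± 0.809 to 7.03 ± 0.165 CPM (-2.67), and Gjc3, a connexin of the oligodendrocyte lineage, went from 14.4 ± 0.573 to 0.529 ± 0.0497 CPM (-4.75). As a share of the FPKM of 19 connexin genes, Gja1 went from 69.8% ± 0.727 to 96.9% ± 0.0436 and Gjc1 from 22.2% ± 0.497 to 1.13% ± 0.0260. Gjb6 went from 0.248% ± 0.155 to 1.10% ± 0.0440, so in both groups Gja1 stood far above it. These shares depend on the gene lengths used. For Gja1 the FPKM imply 3166 bases in DMSO, where GENCODE exons cover 10257. With that length for Gja1 alone, its share would be lower in both groups.

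Aqp4, the water channel of astrocyte endfeet, lies on chromosome 18 from 15389496 to 15410982, minus strand. It held 74.5, 81.5 and 82.1 CPM in DMSO and 250.1, 248 and 249.8 CPM in PluriSIn#2. The lowest value came from DMSO replicate 1, and the groups were far apart. The rise was 3.14-fold (log2 fold change 1.65, SE 0.034, edgeR adjusted p = 4.08e-62). Among 16 genes of water and potassium handling and endfoot anchoring, Aqp4 included, 14 rose and 2 fell, with a median of 1.38. Hepacam, an adhesion protein of astrocyte junctions, rose by 1.58 on the log2 scale.

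Both potassium channel genes of the list fell. Kcnj10, the main inward rectifier of astrocytes, fell from 184 ± 4.90 to 163 ± 0.870 CPM (-0.17, edgeR adjusted p = 2.73e-07), and its partner Kcnj16 fell by 0.38. In FPKM, Aqp4 stood at 0.424 ± 0.0256 of Kcnj10 in DMSO and at 1.504 ± 0.0139 of it in PluriSIn#2. The order of the 2 channel genes per length was thus turned around.

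Atp1b2 encodes a beta subunit of the sodium pump that also acts as an adhesion molecule of glia, and lies on chromosome 11 from 69599736 to 69605942, minus strand. It held 496, 502 and 498 CPM in DMSO and 1063, 1088 and 1101 CPM in PluriSIn#2. Each treated library was more than 2-fold above each DMSO library. The log2 fold change was 1.12 (SE 0.021, edgeR adjusted p = 9.97e-65), and 14.1% of genes tested rose by more. Of 10 tested genes of pump subunits and FXYD regulators 7 rose, 2 fell and 1 was not called.

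The beta subunit genes differed among themselves. Atp1b1 rose by 1.43 and Atp1b3 fell by 0.19. Of the FPKM of the 3 beta genes, Atp1b2 held 55.0% ± 0.669 in DMSO and 58.4% ± 0.881 in PluriSIn#2, while Atp1b3 went from 20.02% ± 0.547 to 8.56% ± 0.340. Among the FXYD regulator genes tested, Fxyd6 fell by 1.87, while Fxyd1 (2.44), Fxyd5 (4.08) and Fxyd7 (1.77) rose. Fxyd5 and Fxyd7 entered the test only through the treated libraries.

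Glul encodes glutamine synthetase, the enzyme that astrocytes use to turn glutamate into glutamine, and lies on chromosome 1 from 153899944 to 153909723, plus strand. It held 556, 541 and 553 CPM in DMSO and 1642, 1635 and 1629.6 CPM in PluriSIn#2. The replicates of each group lay within a few percent of each other. Its rise was 2.97-fold (log2 fold change 1.57, SE 0.020, edgeR adjusted p = 4.52e-78). Exons of the gene overlap those of Teddm2 on the other strand, which had 6 reads over all libraries, and of a microRNA gene with 0 reads.

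Genes around glutamine synthetase were divided. Of 13 tested genes of glutamate uptake and the glutamate-glutamine cycle, 7 rose and 6 fell (median 0.32). The glutamate transporter Slc1a2 rose from 434 ± 4.71 to 1460.2 ± 18.9 CPM (1.75), the transporter Slc1a3 by 0.48, the glutamate dehydrogenase gene Glud1 by 1.51 and the glutamine transporter gene Slc38a3 by 1.28. Gls2, whose product makes glutamate from glutamine, fell by 1.95. Of the other glutamine transporter genes tested, Slc38a1 (-0.95) and Slc38a2 (-1.23) fell, and the transaminase gene Gpt2 fell by 1.15. In FPKM, Slc1a3 stood at 12.3 ± 0.0770 times Slc1a2 in DMSO and at 5.097 ± 0.0788 times in PluriSIn#2.

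Aldh1l1, a folate enzyme (formyltetrahydrofolate dehydrogenase) that serves as a general astrocyte marker, changed least of the 9. It lies on chromosome 6 from 90486427 to 90600203, plus strand. It held 533, 537 and 532 CPM in DMSO and 588, 609 and 601 CPM in PluriSIn#2. The groups did not overlap, but the difference was small. The rise was 1.12-fold (log2 fold change 0.17, SE 0.022, edgeR adjusted p = 8.83e-11), and 42.4% of genes tested rose by more. Whether counting used strand is not given, and Aldh1l1 exons overlap those of an antisense gene, Gm15756, and, by up to 105 bases, of a noncoding gene on the same strand, Gm45901. Neither was analysed here.

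Other folate one-carbon enzymes mostly fell. Of 15 tested, Aldh1l1 included, 3 rose, 11 fell and 1 was not called, with a median of -0.98. Tyms, thymidylate synthase, fell by 3.41 and Shmt1, a serine hydroxymethyltransferase, by 3.02. Aldh1l2, the mitochondrial relative of Aldh1l1, fell from 45.4 ± 2.17 to 12.4 ± 1.56 CPM (-1.87). Mthfs, which returns a folate form to the active pool, rose by 1.19. Tyms is needed for DNA synthesis, and Top2a and Mki67 (-8.32), marks of dividing cells, fell in the same libraries. The part of cell division in these folate values was not tested.

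S100b, a calcium-binding protein of astrocytes, lies on chromosome 10 from 76253853 to 76261159, plus strand. It held 4.37, 4.56 and 6.93 CPM in DMSO and 15.0, 16.4 and 16.4 CPM in PluriSIn#2. DMSO replicate 3 stood above the other DMSO libraries, yet well under each treated one. The log2 fold change was 1.58 (SE 0.12, edgeR adjusted p = 1.89e-22). Of 9 tested genes of the S100 list 6 rose, led by S100a6 (3.05) and S100a1 (1.88), 2 fell and 1 was not called. One of those that fell, S100pbp (-0.40), encodes an S100-binding protein and not an S100 protein, and the other was S100a10. S100b held 1.12% ± 0.280 of the FPKM of 14 S100 genes in DMSO and 1.93% ± 0.0745 in PluriSIn#2. It was thus a minor S100 transcript in these cultures, behind S100a10, which was called lower (-0.14, edgeR adjusted p = 0.0019) but not with library totals in place of TMM (-0.07, edgeR adjusted p = 0.125).

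Sparcl1 encodes hevin, a secreted protein of the SPARC family that promotes synapse formation, and lies on chromosome 5 from 104079111 to 104113733, minus strand. It held 802, 798 and 807 CPM in DMSO and 4348, 4349.5 and 4405 CPM in PluriSIn#2. Replicates of each group were nearly equal. The rise was 5.44-fold (log2 fold change 2.44, SE 0.017, edgeR adjusted p = 1.29e-96), and 3.81% of genes tested rose by more. Its relative Sparc, which opposes hevin at synapses, rose as well, from 149.5 ± 3.40 to 745 ± 15.7 CPM (2.32). Sparcl1 stood 4.55 ± 0.116 times above Sparc in FPKM in DMSO and 4.97 ± 0.107 times in PluriSIn#2. Of 8 SPARC family genes 6 rose, 1 fell and 1 was not called. Spock1 rose by 3.22, and Smoc1 fell from 201 ± 1.48 to 24.4 ± 0.465 CPM (-3.04).

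Thbs4 encodes a thrombospondin, a secreted protein known in astrocytes of the subventricular zone, and lies on chromosome 13 from 92751590 to 92794818, minus strand. It had 11, 19 and 21 reads in DMSO and 0, 1 and 0 reads in PluriSIn#2. A count of 0 allows up to 3 reads, or 0.169 CPM in treated replicate 1 and 0.176 CPM in replicate 3, and each DMSO library lay above that (0.616, 1.07 and 1.12 CPM). Over each group's reads the DMSO level was 49.7 times the treated one (95% exact Clopper-Pearson interval 8.54 to 2003, counting error only). It was called lower (edgeR adjusted p = 5.65e-09). The fitted log2 fold change (-5.19) depends on the prior count, since the treated group held 1 read. Leaving out treated replicate 2, which held that read, gave -7.07. With a filter at 1 CPM the gene was not tested.

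The 3 other thrombospondin genes tested rose. The fifth, Comp, had 11 reads in DMSO and 5 in PluriSIn#2 over the 3 libraries and was not tested. Thbs1 rose from 10.5 ± 0.120 to 47.9 ± 2.07 CPM (2.19), Thbs2 from 7.41 ± 0.449 to 27.2 ± 1.02 CPM (1.88) and Thbs3 from 27.5 ± 0.454 to 46.3 ± 0.505 CPM (0.75). Thbs4 was a small part of the sum of these genes without Comp, with 2.42% ± 0.671 of the FPKM of 4 thrombospondin genes in DMSO and 0.0205% ± 0.0355 in PluriSIn#2. The summed FPKM of the same 4 genes went from 11.5 ± 0.284 to 27.5 ± 0.423. Among 11 other tested synapse organisers 9 rose, 1 fell and 1 was not called. The glypican genes Gpc5 (4.08) and Gpc4 (1.37) rose, and Chrdl1, a secreted BMP antagonist that matures synapses, fell by 2.63.

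**Figure D3:**
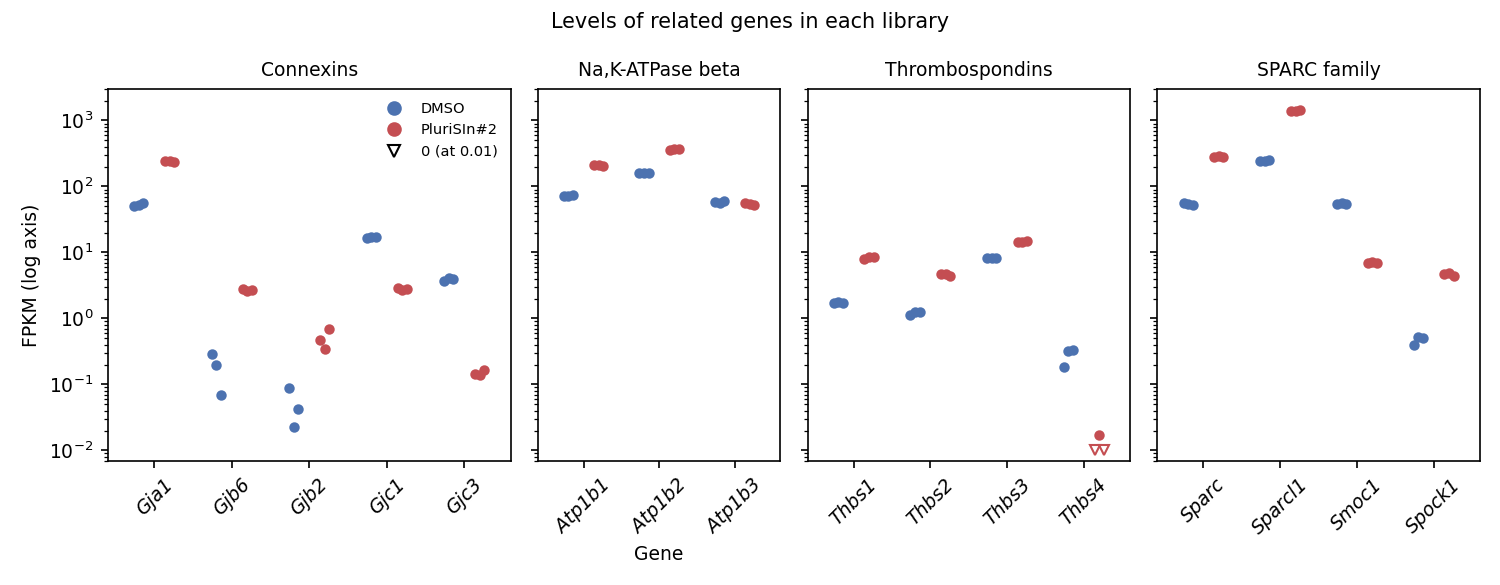
Deposited FPKM (log axis) of the genes and their relatives in 4 families, 1 point per library, with DMSO in blue and PluriSIn#2 in red. Open triangles stand for 0, drawn at 0.01. In the connexin panel Gja1, Gjb6 and Gjb2 move up while Gjc1 and Gjc3 move down, and in the thrombospondin panel Thbs4 moves against Thbs1, Thbs2 and Thbs3.

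Of 30 other astrocyte genes, 24 rose, 5 fell and 1 was not called, with a median of 0.90. The zinc transporter gene Slc39a12 rose by 4.25, the claudin gene Cldn10 by 3.44 and Ndrg2, a marker of mature astrocytes, from 119 ± 1.54 to 683 ± 6.61 CPM (2.52). The GABA transporter gene Slc6a11 fell by 0.85 and the peptide transporter gene Slc15a2 by 0.35. Gfap, the astrocyte filament gene, rose from 42.0 ± 2.17 to 299 ± 0.634 CPM (2.84). Genes that regulate astrocyte differentiation were divided: 11 of 21 rose, 7 fell and 3 missed the threshold, and their median was 0.16. Id4 (1.43), Id1 (0.89) and Sox9 (0.81) rose, and Hes5 (-2.33), Zbtb20 (-1.56), Nfib (-0.87), Nfia (-0.63) and Stat3 (-0.40) fell. Nfix, the other nuclear factor I gene of the list, rose (0.37). Over all 11 lists together, 128 tested genes other than the 9 held 80 called higher and 39 called lower. Of all genes tested, 41.7% were called higher and 40.9% lower. The lists were chosen with earlier results of these data known, so their counts are not a test of the lists. Outside the connexins and Thbs4, the list genes that entered the test only through the treated libraries were Trpv4, Fxyd5, Fxyd7, Smoc2 and Itih3.

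**Figure D4:**
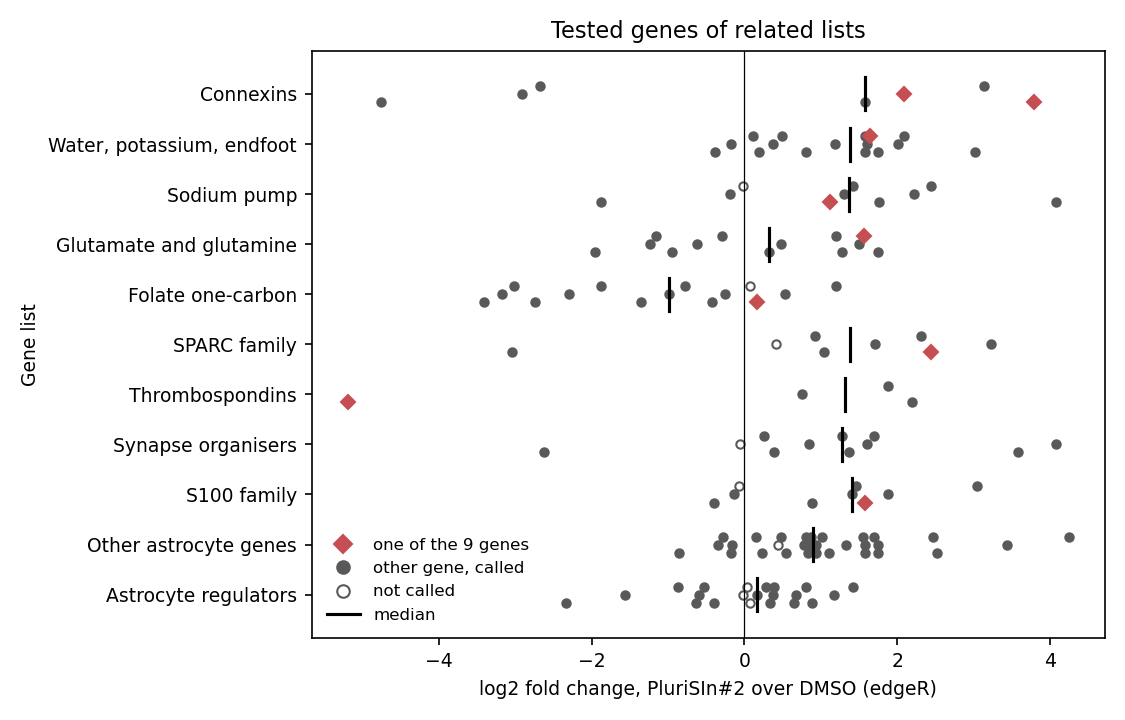
Each point is a tested gene of 1 of 11 related lists, placed by its edgeR log2 fold change of PluriSIn#2 over DMSO. Diamonds are the 9 genes, open circles were not called, and black bars are list medians. The folate list lies mostly left of 0 (median -0.98) with Aldh1l1 near its right side, and Thbs4 stands far left of the other thrombospondins.

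For each of the 9 genes, the gene with the most similar profile was sought among those with a mean of at least 5 CPM. Likeness was the root mean square difference of log2 CPM over the 6 libraries, each gene centred on its DMSO mean. For Glul this was Mlc1, an astrocyte membrane protein gene (difference 0.0147), with a rise of 1.58. For Aqp4 it was Ccng1 (0.0278), for Atp1b2 the ferritin light chain gene Ftl1 (0.0233), for Gja1 the enolase gene Eno2 (0.0390), for Sparcl1 the elongation factor gene Eef1a2 (0.0327) and for Aldh1l1 Sgta (0.0121). For Gjb6 the nearest was Nrtn (0.214), for S100b 2810013P06Rik (0.135) and for Thbs4 Syce2 (0.245). These last 3 matches were looser. The log2 CPM used here carry a prior count of 2, which draws low values together, and Syce2 fell by 2.89 where the fitted value of Thbs4 was -5.19. With 2 groups, likeness is largely the size of the fold change.

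Markers of other cell types moved in the same libraries. The summed CPM of 15 macrophage markers was 9.70 to 10.02 in the DMSO libraries and 167 to 177 in the treated ones, with Trem2 at 0 in DMSO. Without Lyz2 the macrophage sums were 8.10 to 8.85 and 85.2 to 94.0 CPM. Of the 13 tested 10 entered the test only through the treated libraries, so their direction was fixed by their entry. Of the other 3, Cd68 and Lyz2 rose and P2ry12 was not called. For 10 endothelial markers the sums were 8.16 to 8.90 and 35.8 to 39.6 CPM, and for 11 fibroblast and mural markers 33.8 to 35.3 and 236 to 241 CPM. Ependymal markers summed to 40.3 to 42.2 and 162 to 164 CPM, chiefly Foxj1, with Gmnc at 0 in DMSO. Choroid plexus markers summed to 12.8 to 14.6 and 525 to 543 CPM, chiefly Ttr. Among the tested genes that had enough reads in each group, 4 of 5 endothelial, 4 of 5 fibroblast and mural, 4 of 4 ependymal and 3 of 3 choroid plexus markers rose. All 9 markers of oligodendrocyte precursors were called lower, with a median of -2.93. Their sums of 2952 to 3080.1 and 2357 to 2425 CPM were mostly Olig1 and Olig2. Olig1 (-0.07, edgeR adjusted p = 0.000594) overlapped between the groups and was not called with library totals (0.00, edgeR adjusted p = 0.992). Gpr17 entered the test only through DMSO. Of 12 neuronal markers 9 were called higher, 2 of them (Slc17a6 and Slc17a7) entering only through the treated libraries, and 1, Map2, fell. Map2 set the direction of the sum, which was 972 to 1024 CPM in DMSO and 558 to 565 CPM in PluriSIn#2 with it and 101 to 109.7 and 176.5 to 183 CPM without it. Of 5 tested oligodendrocyte markers 2 were called higher, with Mal entering only through the treated libraries, and 2 lower (sums of 156 to 159 and 149.98 to 159.6 CPM).

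Several of the 9 genes are not limited to astrocytes. Sparcl1 is also made by vascular cells, S100b and Aqp4 by ependymal cells, and S100b by cells of the oligodendrocyte lineage. The part of these cell types in the rises was not tested.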

How the data were processed

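RNA was measured in 6 libraries, grouped by their titles. The count table deposited by the authors holds whole-number read counts per gene symbol. The FPKM table, which the authors scaled for gene length and depth, also holds the authors' deposited log2 fold changes and p-values, used only for comparison (for Thbs4 the authors' deposited table gives -5.53). STAR, HTSeq, DESeq and mm10 are named in the submitters' processing notes. Versions, annotation and strand setting: not given in the sources used here.

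Counts were tested in R 4.3.3 with edgeR 4.0.16 (filterByExpr defaults, TMM, glmQLFit, glmQLFTest, group as the only term, two-sided test, Benjamini-Hochberg over the 14417 genes tested, threshold 0.05). TMM factors ran from 0.975 to 1.03. Standard errors come from the fitted model. Replicates differed by more than sampling noise (chi-square per degree of freedom of 1.57 to 2.27). Alternatives used DESeq2 1.42.0, limma 3.58.1 on log2 FPKM, other scalings and filters, and fewer libraries. On a simulated PluriSIn#2 against DMSO comparison (13847 genes), the share of altered genes that edgeR found was 58% for 1.2-fold changes, 96% for 1.5-fold, 98% for 2-fold and 100% for 4-fold. It also called 11 unaltered genes. The simulation left most genes unaltered and gave all genes the same spread, where 82.6% were called in the real contrast. Each altered gene had more reads per DMSO library, on average, than Gjb6 or Thbs4. These shares thus do not carry over to the real contrast or to such low genes.

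The 9 genes and all lists were chosen with earlier results of these data known. The rule for named genes took the 9 genes, Top2a and Mki67, per list the called genes with the 2 highest and 2 lowest log2 fold changes (mean CPM 5 or more), fixed relatives of the 9, and the nearest profile of each. Some list genes that the rule names are not reported here; the list counts include them. Genes named beyond it as examples were chosen after their values were seen. Positions come from GENCODE release M21 and promoters from RefSeq. PCR copies cannot be told from molecules, so intervals and floors cover counting error only.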

Additional observations from a re-analysis of the deposited data

How the results depend on the processing

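Each of the 9 genes kept its direction and its call in every alternative in which it was tested. Log2 fold changes over the main and 16 alternative settings ran from 2.43 to 2.51 for Sparcl1, 2.06 to 2.16 for Gja1, 1.56 to 1.64 for Glul, 1.60 to 1.72 for Aqp4, 1.09 to 1.19 for Atp1b2 and 0.14 to 0.24 for Aldh1l1. They ran from 1.41 to 1.83 for S100b and 1.65 to 4.26 for Gjb6, the lowest on the log2(FPKM + 1) scale, which understates low genes. The largest adjusted p of any of these was 0.000317, for Aldh1l1 with treated replicate 1 alone. Thbs4 fell under the filter at 1 CPM and under that at 0.5 FPKM with either pseudocount, so there the count of the 9 called lower was 0. In the other settings Thbs4 was called, with the largest adjusted p at 0.000755 and values of -7.09 to -0.35, the last on the log2(FPKM + 1) scale. Leaving out each library in turn gave 8 called higher and 1 called lower each time. With the replicate number as a block, 8 and 1 of the 9, 80 and 39 list genes, and 5984 and 5867 of all genes were called higher and lower, so the block changed no call of the 9. Same-numbered libraries did not deviate together (correlations of -0.0122, -0.0220 and 0.00601 over 11413 genes). Differently numbered ones gave -0.0214 to 0.0341. A pairing that left little trace in expression would look the same, so whether the numbers pair the libraries was not settled. Low reads limit Gjb6 in DMSO and Thbs4 in PluriSIn#2.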
